A study of Mus musculus with 3 samples.

Results

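Motile cilia genes encode the beating axoneme of multiciliated cells, which in the brain are the ependymal cells that line the ventricles and, in smaller number, cells of the choroid plexus. The set described here holds 42 such genes, chosen by name from 54532 genes in the deposited table, and all 42 were found. They were followed in hippocampal RNA of 10-month-old mice on a C57BL/6 background in 3 groups of 1 library each. The groups were wild type (WT), PS19, which carries a human tau transgene under the mouse Prnp promoter, and PS19 mice labelled Zbp1+- (PS19 Zbp1+/- hereafter), a notation that marks a heterozygote for Zbp1, the gene of a nucleic acid sensor; the name stands here for the library labelled so. Both PS19 groups carry the transgene. No difference has a replicate check, and each value describes 1 library. Values given as a series of 3 follow the order WT, PS19, PS19 Zbp1+/- throughout.

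An axoneme is a ring of microtubule doublets around a central pair. Outer and inner dynein arms on the doublets drive the bending, radial spokes pass signals from the central pair to the arms, and the nexin-dynein regulatory complex links neighbouring doublets. Foxj1 is the forkhead factor that switches this gene programme on, together with RFX factors, and the dynein arms are assembled in the cytoplasm by dedicated factors before they are docked. Transthyretin (Ttr) is the hallmark transcript of the choroid plexus epithelium, and the question asked of these genes is whether they follow Ttr across the 3 libraries.

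The libraries held 16746085, 16400328 and 17109734 reads, recovered from the deposited FPKM values. The tissue label was checked with 6 hippocampal neuron genes, whose lowest FPKM, that of Prox1, was 8.76, 9.51 and 5.20. These genes also moved apart in the library labelled PS19 Zbp1+/-, where Slc17a7 was at 1.80 of WT, Prox1 at 0.593 and the sum of the 6 at 1.37, and their part in the results was not tested. Zbp1 itself had 5, 91 and 0 reads, and a count of 0 allows up to 3 reads. The count of 0 goes against the heterozygote label when set beside PS19, with an upper limit of 0.0452 for the ratio, whereas beside WT the upper limit is 1.19, so each direction given for PS19 Zbp1+/- is that of the library so labelled. The number of genes with any read was 24741, 25397 and 21408. PS19 Zbp1+/- also had 0 reads of Xist, against 11062 and 13350, and 711 reads of the Y-linked Ddx3y, against 0 and 0, and the labels give no sex. The part of sex and of the lower number of detected genes in the results below was not tested.

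The motile cilia genes did not follow Ttr in size of change, though 39 of the 42 were also below WT in PS19 Zbp1+/-. Together they had 5907, 6248 and 3240 reads, while Ttr had 63846, 38820 and 136. From WT to PS19, Ttr was lower, at a read ratio of 0.607 (exact 95% interval 0.599 to 0.615), and the summed cilia genes were at 1.06 (1.02 to 1.09). From WT to PS19 Zbp1+/-, Ttr was at 0.00232 (0.00195 to 0.00275) and the summed cilia genes at 0.598 (0.573 to 0.624). For each 1000 Ttr reads there were therefore 92.5 (90.1 to 95), 161 (157 to 165) and 23824 (20064 to 28495) cilia reads. The last is 257 times the WT value, and per read of the 17-gene choroid plexus list it is 27.9 times. Genes of that list parted from Ttr as well. Their log2 read ratios to WT ran from -1.37 to 0.154 in PS19, with 13 below 0 and 4 above. In PS19 Zbp1+/- they ran from -8.75 to -2.88, and 13 of the 17 lay below the lowest motile cilia gene. All 42 genes had an interval wholly above the Ttr ratio in PS19 Zbp1+/- over WT, and also in PS19 Zbp1+/- over PS19. With reads set to at least 3, Ttr had the lowest log2 read ratio of all 14950 protein-coding genes tested. It was at -8.75 over WT and -8.03 over PS19. Any other tested gene thus lies above it on that scale, so lying above Ttr does not set the motile cilia genes apart. The intervals use the reads as they are. By these reads the plexus genes Slc4a5 and Tmem72 had a ratio of 0 to WT, and the interval of Kcnj13 contained the Ttr ratio. These 3 genes were named after their values were seen. In PS19 over WT, 31 of the 42 intervals lay wholly above the Ttr ratio and 11 contained it. The same count over all genes was not made. Their median log2 read ratio was -0.01, above the -0.72 of Ttr, so this count alone does not set the motile cilia genes apart either. In bulk tissue fewer cells of a type and less RNA per cell cannot be told apart.

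**Figure D1:**
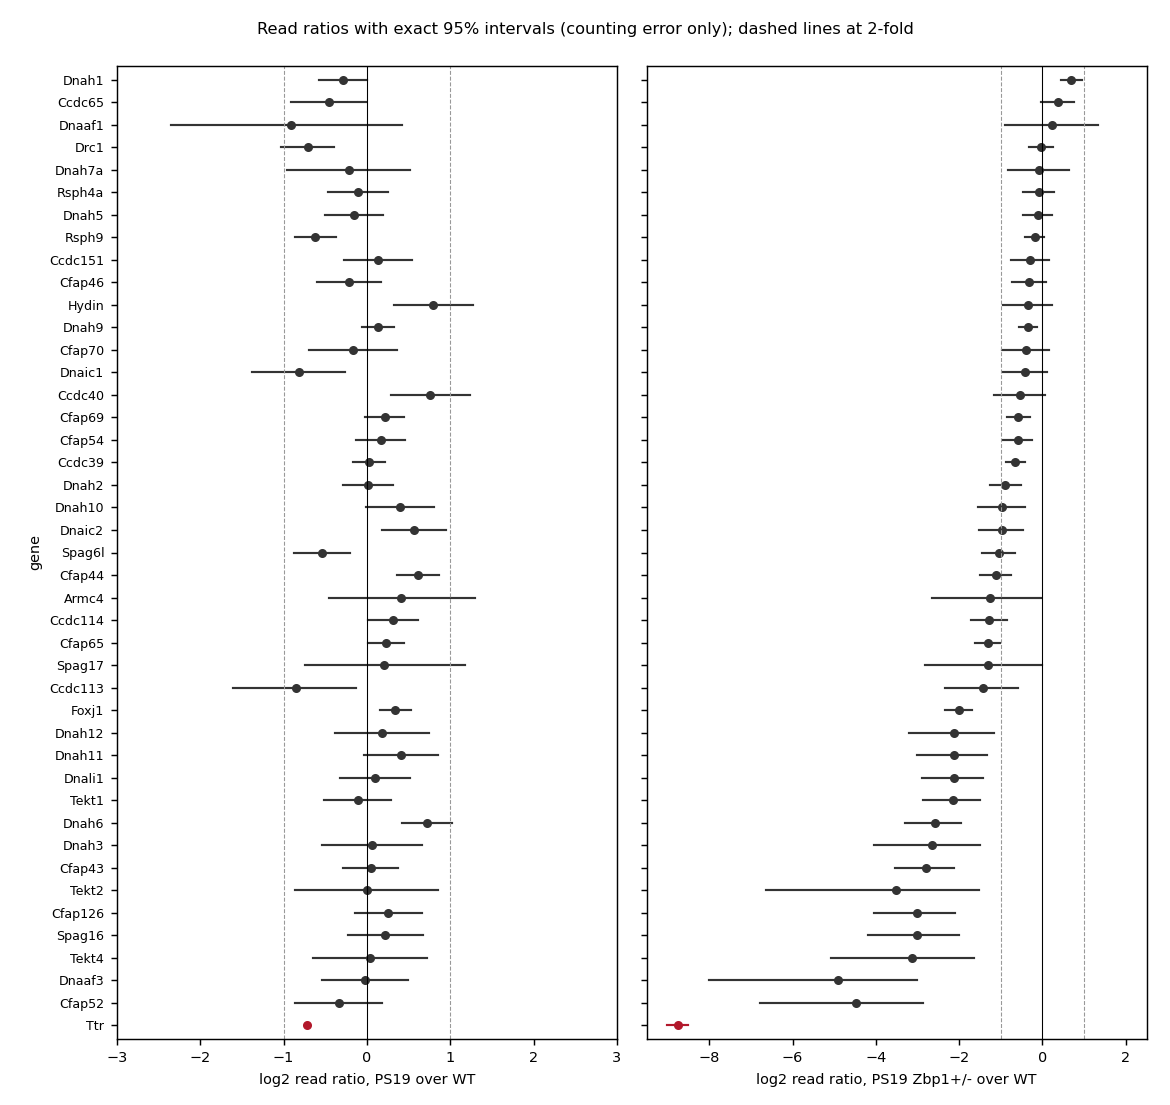
Log2 read ratio of each motile cilia gene and of Ttr (red) in PS19 over WT (left) and PS19 Zbp1+/- over WT (right), with 1 library per genotype, exact 95% intervals for counting error as bars, and dashed lines at 2-fold. The 42 genes lie within 2-fold of WT in PS19 and spread from below -4 to 0.69 in PS19 Zbp1+/-, while Ttr lies at -8.75 there. Tekt2, Dnaaf3 and Cfap52 are drawn from 2, 2 and 3 reads in PS19 Zbp1+/-.

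Between PS19 and WT the set was level. None of the 42 genes was at least 2-fold higher or lower, where 6.38% of 14950 protein-coding genes were higher and 1.95% lower. The median log2 read ratio was 0.05 over the 42 genes and -0.01 over all genes tested. Intervals lay wholly above 1 for 8 genes and wholly below 1 for 7, against 27.1% and 28.8% of all genes, and 27 intervals contained 1. Between PS19 Zbp1+/- and WT, 21 of the 42 genes were at least 2-fold lower and 0 higher, against 8.54% and 3.88% of all genes, with a median of -1.02 against -0.01. Between PS19 Zbp1+/- and PS19, 23 genes were lower and 1 was higher, against 13.6% and 4.45%, with a median of -1.34 against 0.01. Intervals of PS19 Zbp1+/- over WT lay wholly below 1 for 28 genes and above for 1, against 30.6% and 31.2% of all genes, and those over PS19 for 29 and 4, against 33.3% and 34.6%. The comparisons with WT and with PS19 share the PS19 Zbp1+/- library. The other 21 genes lay within 2-fold of WT in PS19 Zbp1+/-, so the set was split at this threshold. By sign, 39 of the 42 log2 read ratios to WT were below 0 and 3 above, against 7659 and 7291 of all 14950 genes. Most genes were thus lower there, by unlike amounts.

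On the log2(FPKM + 1) scale, where low genes show smaller differences than by read ratio, 25 of the 42 genes reached an FPKM of 1 in PS19 or WT, and none of these differed by 1 log2 unit, against 2.2% of all genes higher and 0.291% lower. In PS19 Zbp1+/- against PS19, 7 of 25 genes were lower and 0 higher, against 5.16% and 2% of all genes. In PS19 Zbp1+/- against WT, 7 of 23 were lower and 0 higher, against 2.28% and 1.07%. Since a gene could pass this filter through its higher library alone, these counts are a description of the genes that passed.

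**Figure D2:**
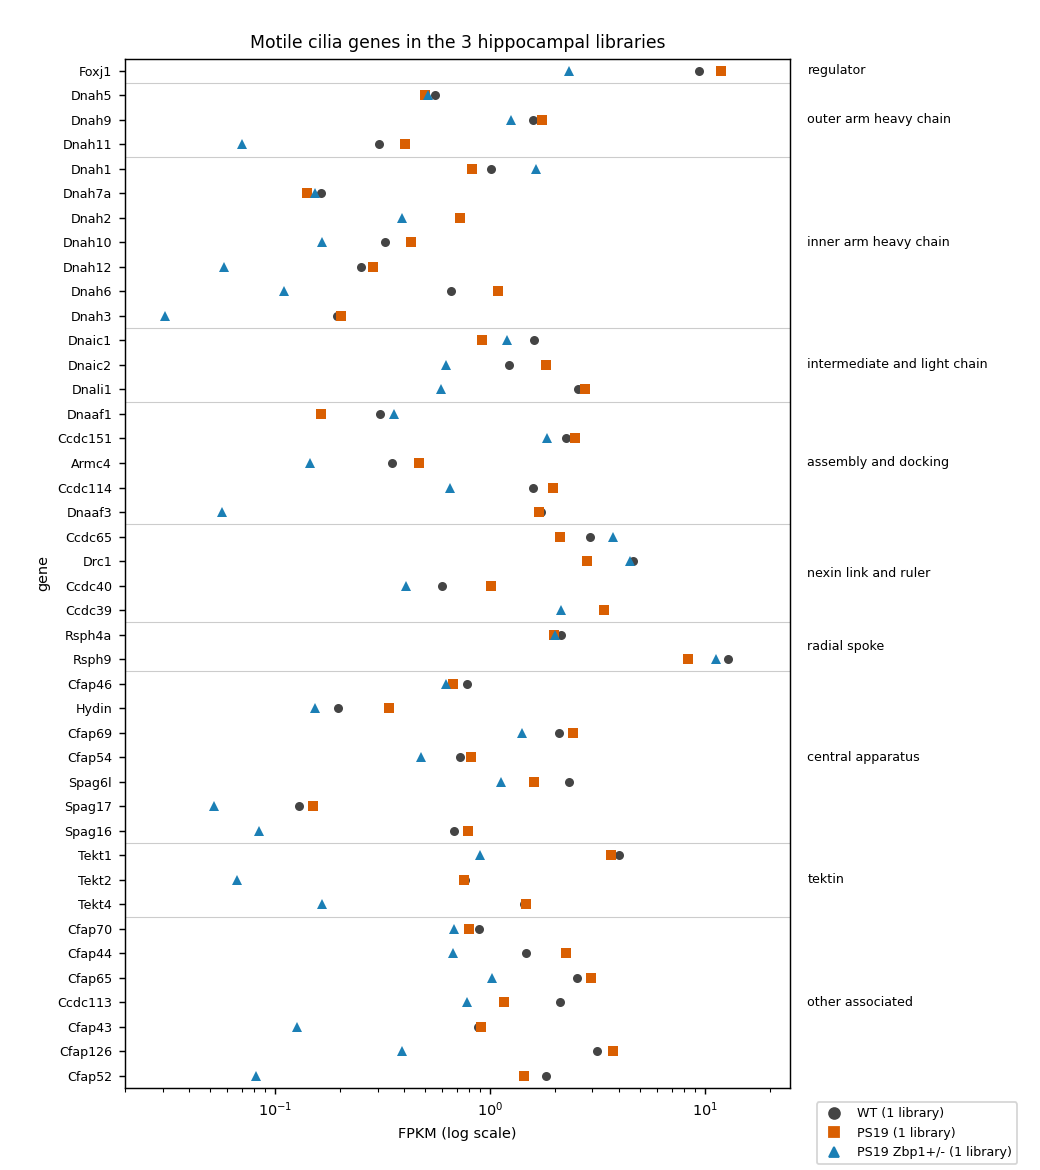
FPKM (log axis) of each of the 42 motile cilia genes in WT (circles), PS19 (squares) and PS19 Zbp1+/- (triangles), 1 library each, grouped by role. The PS19 Zbp1+/- library lies lowest for 33 genes and PS19 for 9, among them both radial spoke genes, Drc1, Ccdc65 and Dnah1.

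Foxj1, the regulator, was among the genes clearly lower in PS19 Zbp1+/-. It had 424, 537 and 97 reads, or FPKM values of 9.37, 11.8 and 2.34 (GRCm38 chr11:116330704-116335399, minus strand). PS19 was slightly above WT, at a read ratio of 1.26 (1.11 to 1.44). PS19 Zbp1+/- was at 0.249 of WT (0.198 to 0.312) and 0.197 of PS19 (0.157 to 0.245). Its order, with PS19 highest, is not that of Ttr, which was highest in WT.

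The other regulators of multiciliation formed a list of 10 genes, 7 of them with enough reads. Between PS19 Zbp1+/- and WT, 3 of the 7 were at least 2-fold lower and 0 higher, against 8.54% and 3.88% of all genes. Rfx3, the most abundant RFX factor of the list and one that neurons also express, had 1620, 1507 and 874 reads. Trp73, a p53 family factor that acts upstream of Foxj1, had 120, 153 and 42 reads, at 0.382 of WT in PS19 Zbp1+/- (0.262 to 0.546). Rfx2 had 112, 134 and 44 reads, at 0.428 (0.295 to 0.612). Both shared the order of Foxj1, with PS19 highest and PS19 Zbp1+/- lowest. Their intervals of PS19 over WT, 0.995 to 1.63 for Trp73 and 0.922 to 1.55 for Rfx2, contain 1. Gmnc, which starts the multiciliated fate, was highest in WT, with 133, 112 and 64 reads. Ccno, needed for centriole amplification and chosen after its values were seen, went the other way, with 57, 22 and 80 reads.

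Promoter sequence gives another view of the set that its choice did not use. Of the 42 genes, 35 matched a RefSeq promoter entry, with 40 promoters of 300 bases in all, and the 7 without one were Foxj1, Dnah3, Dnaaf1, Armc4, Cfap65, Rsph4a and Cfap54. The RFX core GTTGCC, read on both strands (GGCAAC on the other), was found in 14 of the 40 promoters, or 35%, against 12.5% of 32851 promoters of the same length. The forkhead core TGTTTA, also read on both strands, was in 7 of 40, or 17.5%, against 13.4%. A paired X-box, GTTNCC followed after 0 to 3 bases by GGNAAC, which may overlap the RFX core, was in 1 of 40, against 0.804%. By gene, the RFX core was in 7 of 17 genes at least 2-fold below WT in PS19 Zbp1+/- and in 6 of 18 genes within 2-fold of WT. The letters are matches in a window and no measure of binding.

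The stretches shown next hold the RFX core upstream of 3 genes that were low in PS19 Zbp1+/- (Spag16, Tekt2, Cfap44) and of Dnah7a, which was near WT there, and the 1 paired X-box of the set, upstream of Ccdc151, also near WT. Each is 60 bases from RefSeq on GRCm38.p6, 5′ to 3′ on the gene's strand and outside annotated exons, with the RFX core or, for Ccdc151, the paired X-box in capitals.
Spag16 (chr1:69826832-69826891, plus strand): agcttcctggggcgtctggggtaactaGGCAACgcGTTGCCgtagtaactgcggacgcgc
Tekt2 (chr4:126325752-126325811, minus strand): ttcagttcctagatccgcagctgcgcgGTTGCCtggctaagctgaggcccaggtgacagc
Cfap44 (chr16:44394643-44394702, plus strand): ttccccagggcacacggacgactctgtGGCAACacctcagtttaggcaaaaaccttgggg
Ccdc151 (chr9:22002635-22002694, minus strand): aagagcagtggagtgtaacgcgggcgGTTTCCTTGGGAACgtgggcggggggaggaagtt
Dnah7a (chr1:53706952-53707011, minus strand): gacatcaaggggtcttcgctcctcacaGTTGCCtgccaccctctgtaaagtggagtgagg

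The Spag16 stretch holds the core on both strands, the first beginning 111 bases before the start. The Tekt2 core begins 96 bases, the Cfap44 core 129 bases, the Ccdc151 X-box 34 bases and the Dnah7a core 200 bases before it.

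The tektins, filament proteins that stiffen the doublet wall, were low together in PS19 Zbp1+/-. Tekt1 had 111, 103 and 23 reads, at 0.226 of WT in PS19 Zbp1+/- (0.138 to 0.356). Tekt4 had 38, 39 and 4 reads, at 0.115 (0.0297 to 0.319). Tekt2 had 25, 25 and 2 reads, at 0.0872 (0.01 to 0.35). WT and PS19 were level for all 3 and PS19 Zbp1+/- stood apart below them. Summed over the 3 tektins, reads were 174, 167 and 29.

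The lowest genes of the whole set in PS19 Zbp1+/-, Cfap52 and Dnaaf3, belonged to different roles. Cfap52, a protein of the doublet lumen (GRCm38 chr11:67924806-67965651, minus strand), had 73, 58 and 3 reads, at 0.0448 of WT (0.00903 to 0.136). Dnaaf3, a cytoplasmic factor that assembles dynein arms (chr7:4522933-4532453, minus strand), had 66, 65 and 2 reads, at 0.033 (0.00392 to 0.124). Even these genes were less reduced than Ttr, the lowest of all protein-coding genes tested with reads set to at least 3. Cfap126, also called Flattop and of the same group as Cfap52, had 96, 115 and 11 reads, at 0.125 (0.0603 to 0.234). Cfap43, also of that group and needed for sperm and ependymal axonemes, had 151, 156 and 20 reads, at 0.144 (0.0858 to 0.231). For each of these 4 genes the interval of PS19 over WT contains 1.

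The remaining genes of the cilia and flagella associated group were lower by less or not at all. Cfap65 had 341, 401 and 126 reads, at 0.403 of WT in PS19 Zbp1+/- (0.326 to 0.496). Cfap44, which with Cfap43 acts in the tether of an inner arm, had 214, 327 and 90 reads, at 0.458 (0.354 to 0.589), and PS19 lay above WT at 1.52 (1.28 to 1.82). Ccdc113 was highest in WT, with 47, 26 and 16 reads. Cfap70, a protein tied to the outer arm, had 66, 59 and 46 reads, and its interval of 0.51 to 1.12 for PS19 Zbp1+/- over WT contains 1. The group of 7 summed to 988, 1142 and 312 reads, the lowest share of WT after the tektins and Foxj1.

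Among the outer arm heavy chains, the large motor subunits, the 3 genes behaved differently. Dnah5, a core outer arm motor (chr15:28203752-28472052, plus strand), was level, with 150, 135 and 127 reads and a PS19 Zbp1+/- ratio to WT of 0.923 (0.723 to 1.18). Dnah9, the most abundant dynein heavy chain of the set by FPKM in WT and PS19, had 438, 481 and 315 reads, at 0.784 (0.676 to 0.908). Dnah11, which replaces Dnah9 in the proximal axoneme, had 76, 101 and 16 reads, at 0.23 (0.125 to 0.397). The intervals of Dnah11 and Dnah5 do not overlap, although both encode outer arm motors.

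The inner arm heavy chains were split in the same way. Dnah6 (chr6:73017606-73221651, minus strand) had 151, 249 and 23 reads, at 1.65 in PS19 over WT (1.34 to 2.03) and 0.166 in PS19 Zbp1+/- over WT (0.102 to 0.259). Dnah3 had 48, 50 and 7 reads and Dnah12 had 52, 59 and 11, at 0.159 (0.0607 to 0.353) and 0.231 (0.108 to 0.447) of WT. Dnah10 had 90, 119 and 42 reads and Dnah2 had 186, 188 and 92, at 0.509 and 0.539 of WT. Dnah1 was the exception and was highest in PS19 Zbp1+/-. It had 227, 186 and 337 reads (chr14:31260375-31323896, minus strand), at 1.62 of WT (1.36 to 1.92), and was the 1 gene of the 42 whose interval in PS19 Zbp1+/- over WT lay wholly above 1. Dnah7a had 36, 31 and 31 reads. Its transcript shares 96.9% identity with Dnah7b over 12230 bases and with Dnah7c over 12199 bases, so the split of reads among these copies is uncertain. Dnah7b had 86, 224 and 32 reads, and Dnah7c 64, 50 and 53.

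Of the smaller dynein chains 1 of 3, and of the factors that build and dock the arms 3 of 5, were at least 2-fold below WT in PS19 Zbp1+/-. The share of all genes was 8.54%. The light intermediate chain gene Dnali1 had 95, 102 and 20 reads, at 0.23 of WT (0.134 to 0.375). The intermediate chain genes Dnaic2 and Dnaic1 parted. Dnaic2 had 97, 144 and 45 reads, with PS19 at 1.48 of WT (1.14 to 1.94). Dnaic1 had 77, 44 and 53 reads, with PS19 at 0.57 of WT (0.385 to 0.837). Of the docking genes, Ccdc114 had 166, 207 and 63 reads, at 0.414 of WT in PS19 Zbp1+/- (0.305 to 0.556), and Armc4 had 21, 28 and 8. Ccdc151, which docks the same arms, had 98, 108 and 73 reads, at 0.812 (0.591 to 1.11). The assembly factor gene Dnaaf1 had only 15, 8 and 16 reads. It was the 1 gene that stood 2-fold or more above PS19 in PS19 Zbp1+/-, at 2.18, with an interval of 0.882 to 5.9 that contains 1.

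The 2 radial spoke genes of the set were near WT in PS19 Zbp1+/-. Rsph genes outside the set, named after their values were seen, varied there. Rsph1 was at 0.382 of WT, Rsph3b at 0.513, Rsph10b at 0.699, Rsph14 at 1.09 and Rsph3a at 1.22. Rsph9, a spoke head protein and the member with the highest FPKM in WT (chr17:46122035-46144216, minus strand), had FPKM values of 12.8, 8.34 and 11.3 from 354, 231 and 286 reads. Its ratio to WT was 0.651 in PS19 (0.549 to 0.771) and 0.881 in PS19 Zbp1+/- (0.751 to 1.03). Rsph4a, another spoke head protein, had 135, 126 and 116 reads and lay at 0.937 of WT in PS19 Zbp1+/- (0.724 to 1.21). Rsph9 was thus lowest in PS19, and Rsph4a was about level in the 3 libraries.

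Within the set, Drc1 and Ccdc65, both base subunits of the nexin-dynein regulatory complex, behaved like Rsph9 and Rsph4a in PS19 Zbp1+/-. Drc1 (chr5:30281388-30366695, plus strand) had 214, 131 and 191 reads, at 0.611 of WT in PS19 (0.488 to 0.763) and 0.973 in PS19 Zbp1+/- (0.796 to 1.19). Ccdc65 had 100, 73 and 118 reads, at 0.729 (0.531 to 0.995) and 1.29 (0.977 to 1.7). PS19 was the lowest library for both. Ccdc39 and Ccdc40 form the ruler that sets the spacing of arms and spokes along the doublet. Ccdc39 had 431, 439 and 252 reads, at 0.637 of WT in PS19 Zbp1+/- (0.543 to 0.746). Ccdc40 had 62, 105 and 39 reads, at 0.686 (0.447 to 1.04), with PS19 at 1.69 of WT (1.22 to 2.35). Neither ruler gene was 2-fold below WT, and Ccdc39 overlaps Ttc14.

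The central apparatus, the hub that the spokes touch, held 7 genes. Of these, 3 were at least 2-fold below WT in PS19 Zbp1+/-, against 8.54% of all genes. Spag16 had 79, 92 and 9 reads, at 0.124 (0.0548 to 0.248). Spag17 was weak, with 19, 22 and 7 reads. Spag6l had 183, 126 and 81 reads, at 0.483 (0.367 to 0.63), and was highest in WT. Hydin, whose loss causes hydrocephalus in mice, had 61, 106 and 44 reads, with PS19 at 1.73 of WT (1.25 to 2.42) and PS19 Zbp1+/- at 0.786 (0.521 to 1.18). Cfap54 and Cfap69 had 183, 206 and 111 and 287, 333 and 176 reads, at 0.661 and 0.669 of WT in PS19 Zbp1+/-. Cfap46 had 124, 107 and 91 reads, and its interval of 0.604 to 1.06 contains 1. Spag16 lies wholly below the intervals of Hydin, Cfap46, Cfap54 and Cfap69 in the same apparatus.

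Weakly expressed genes in general were lower in PS19 Zbp1+/-, and the part of this in the ratios was not tested. Of protein-coding genes with 20 to 99 reads over the 3 libraries, 32.4% were at least 2-fold below WT, and 5 of 7 motile cilia genes were. With 100 to 199 reads the share was 23.4% of all genes and 6 of 8 cilia genes, and with 200 to 399 reads 13.8% and 5 of 13. With 400 to 799 reads it was 7.21% and 3 of 9, and with 800 to 1599 reads 3.43% and 2 of 5, these being Foxj1 and Cfap65. The share of all genes was thus smaller at each higher range of read number.

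**Figure D3:**
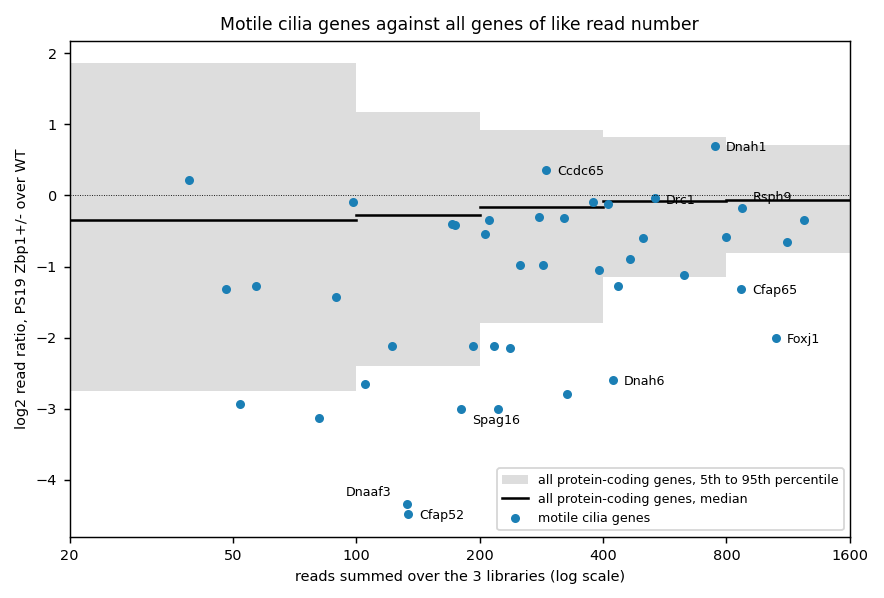
Log2 read ratio of PS19 Zbp1+/- over WT against the reads summed over the 3 libraries (log axis) for the 42 motile cilia genes (points), with the median (line) and the 5th to 95th percentiles (grey) of all protein-coding genes in 5 ranges of read number. Foxj1, Cfap65, Dnah6 and Ccdc114 lie below the grey band among genes of over 400 reads, and Drc1, Rsph9 and Dnah1 lie inside it.

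Reads of neighbouring genes may enter some values, since the strand setting of the counting is not known. Of the 42 genes, 13 overlap another gene with at least 20 reads. Ccdc39 shares 842 transcript bases with the opposite-strand Ttc14, which had 2578, 2729 and 1572 reads. Rsph9 overlaps Mrps18a (673, 564 and 616 reads), Dnaic1 overlaps Enho (896, 745 and 1168) and Dnaaf1 overlaps Taf1c (232, 221 and 280). Dnaaf3 overlaps Tnni3 on the same strand (19, 15 and 4). Cfap52 overlaps 9130017K11Rik (5, 5 and 13) and Dnah1 overlaps Gm35823 (9, 7 and 18). The others are Dnah3, Dnah11, Dnali1, Spag17, Cfap43 and Cfap46. Among the 29 genes without such an overlap, 14 were at least 2-fold below WT in PS19 Zbp1+/- and 0 above, against 8.54% and 3.88% of all genes. Drc1, Ccdc65, Dnah5 and Rsph4a are among these 29.

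A list of 60 further motile cilia genes, 57 of them with enough reads, was split at 2-fold as well. Between PS19 Zbp1+/- and WT, 23 were at least 2-fold lower and 1 was higher, against 8.54% and 3.88% of all genes. The median log2 read ratio was -0.80. Between PS19 and WT 3 were lower and 3 higher, against 1.95% and 6.38% of all genes, with a median of -0.10. Tppp3, a tubulin polymerisation protein, had 749, 865 and 355 reads, at 0.517 of WT in PS19 Zbp1+/- (0.454 to 0.587). Gas8, a subunit of the nexin-dynein regulatory complex like Drc1, had 419, 399 and 377, Cfap74 had 307, 440 and 255, and the outer arm light chain gene Dnal1 had 2147, 1952 and 2050. In PS19 Zbp1+/- over WT the intervals of Gas8, Cfap74 and Dnal1 contain 1 and that of Tppp3 does not. Drc7 and Drc3, also of the regulatory complex and named after their values were seen, were lower. Drc7 had 409, 418 and 53 reads, at 0.141 of WT in PS19 Zbp1+/- (0.104 to 0.188). Drc3 had 207, 204 and 133 reads, at 0.7 (0.559 to 0.875).

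Genes of intraflagellar transport and the BBSome, which serve the non-motile primary cilium of neurons as well, were level. Of the 33 genes on this list 1 was at least 2-fold below WT in PS19 Zbp1+/- and 1 higher, against 8.54% and 3.88% of all genes. The median was -0.12, and 0 passed 2-fold between PS19 and WT, against 1.95% lower and 6.38% higher of all genes. The lower gene was Arl13b (216, 213 and 93 reads) and the higher Adcy3 (799, 767 and 1588), both named after their values were seen. Both are on the list, but neither is a subunit of the transport or BBSome complexes. The kinesin-2 subunits Kifap3, Kif3a and Kif3b had 5060, 4126 and 4384, 2124, 1924 and 2279, and 1476, 1443 and 1332 reads. Ift172 was highest in PS19 Zbp1+/-, with 1111, 1243 and 1505 reads.

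**Figure D4:**
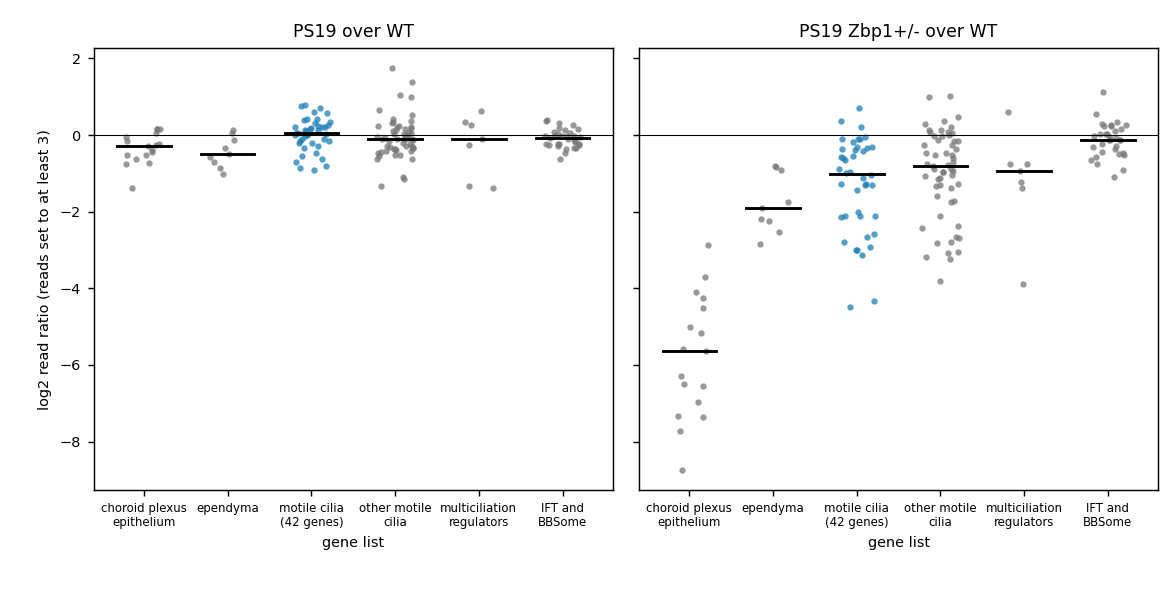
Log2 read ratio of single genes (points) with the list median (bar) in PS19 over WT (left) and PS19 Zbp1+/- over WT (right), for genes with at least 20 reads over the 3 libraries, 1 library per genotype. In PS19 Zbp1+/- the medians run from -5.63 for choroid plexus over -1.90 for ependyma and -1.02 for the 42 motile cilia genes to -0.12 for intraflagellar transport and BBSome.

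Markers of the cells that could carry these genes moved by different amounts. The choroid plexus list of 17 genes had a summed FPKM of 3529, 2248 and 28.2, with all 17 at least 2-fold below WT in PS19 Zbp1+/- and Tmem72 and Slc4a5, named after their values were seen, at 0 reads. Enpp2, Kl and Clic6, all abundant in plexus epithelium, lay at 0.0524, 0.136 and 0.0311 of WT. The ependyma list of 10 genes had a summed FPKM of 41.6, 31.8 and 12.8, with Mia, also named after its values were seen, at 0 reads in all 3 libraries and 6 of 9 genes at least 2-fold below WT in PS19 Zbp1+/-. Its median was -1.90. Ccdc153 had 171, 94 and 27 reads, Rarres2 122, 97 and 60, Cd24a 239, 249 and 124, and Tm4sf1 354, 387 and 186. Between PS19 and WT the ependyma median was -0.49, the plexus median -0.28 and that of the motile cilia genes 0.05. The meninges and plexus stroma list of 10 genes had a summed FPKM of 34.5, 24.1 and 26.1 with none at 0, and 9 of the 10 were at least 2-fold below WT in PS19 Zbp1+/-, with a median of -2.01. The astrocyte list of 5 genes had 250, 396 and 270, with 0 genes 2-fold from WT in PS19 Zbp1+/-. Over all protein-coding genes tested, 8.54% were at least 2-fold below WT in PS19 Zbp1+/-. The part of each cell type in the level of the motile cilia genes was not tested.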

How the data were processed

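Total RNA of 3 hippocampal samples, 1 per genotype, was sequenced after TRIzol extraction, with a NEB Next Ultra RNA kit for the libraries, per the labels' protocols. The submitters' processing notes name Trim Galore 0.6.5, STAR 2.5.3a, featureCounts 2.0.4 and the build mm39, without roles. The strand setting and any pooling of animals are not given in the sources used here. The authors' deposited table gives FPKM, a read number divided by gene length and library size, for 54532 genes. Its gene positions equal those of GENCODE M21, on GRCm38 and not mm39, for 98.3% of 54495 gene IDs, and coordinates are given on GRCm38.

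Each FPKM times gene length was a whole multiple of 1 step (within 0.1 of a read) in 100% of values of each column, so whole reads were recovered, together with the library size that each step implies. Ratios of reads, each divided by the implied library size, carry 95% intervals by the exact Clopper-Pearson method. They compare libraries, not genotypes, and reflect counting error alone, because each genotype had 1 library. PCR copies could not be identified, so the intervals may be too narrow even for that error. The threshold for higher or lower was 2-fold, over protein-coding genes with at least 20 reads summed over the 3 libraries, with reads set to at least 3. The same was done on log2(FPKM + 1) for genes that reached an FPKM of 1 in a library of the comparison. With 1 library per genotype no p-value was computed.

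The 42 genes, the 9 other gene lists and the alternatives were chosen with earlier results of these data known. Named genes were all 42, Ttr, Zbp1 and up to 4 genes with the most reads of each other list. Genes outside this rule are marked as chosen after their values were seen. Exceptions are Prox1, named as the neuron gene of lowest FPKM, and genes that overlap or copy 1 of the 42. Near-identical copies were sought among M21 transcripts with BLAST 2.17.0 (90% identity over at least 300 bases). Promoters are RefSeq sequences on GRCm38.p6. The read recovery and the calls were tested on simulated reads with counting error alone and with changes larger than the 2-fold threshold. That test cannot show how the calls hold against spread between animals. Scripts ran under Python 3.11.15 with scipy 1.17.1, pandas 2.3.3, numpy 2.4.6 and, for plots, matplotlib 3.10.9.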

Additional observations from a re-analysis of the deposited data

How the results depend on the processing

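No paired analysis was possible because each genotype had 1 library, and for the same reason no library could be left out. For PS19 over WT, the median over the motile cilia genes was 0.14 on the log2(FPKM + 1) scale after rescaling to TPM. Its read-ratio median was 0.17 without genes that overlap another gene, an alternative added after seeing the data, and a threshold of 1.5-fold gave 4 genes higher and 5 lower in place of 0 and 0, against 13.0% and 6.38% of all genes. For PS19 Zbp1+/- over PS19, where 7 genes were lower on the log2(FPKM + 1) scale with a median of -0.51, the count and median were 13 and -1.12 with a pseudocount of 0.1 (9.27% of all genes lower) and 17 and -0.87 with TPM (13.6%). The median was -0.31 with no filter, and a threshold of 1.5-fold gave 12 lower and 1 higher (12.1% and 9.37%). The 1 gene higher by read ratio became 0 with at least 100 reads, with scaling by total reads and without overlapping genes, and 4 at 1.5-fold (13.1%). For PS19 Zbp1+/- over WT, where 7 were lower with a median of -0.56, the count and median were 11 and -0.99 with a pseudocount of 0.1 (4.37%). TPM gave 15 lower (6.34%), 1.5-fold gave 11 (7.12%), and no filter a median of -0.26, while 1.5-fold gave 1 gene higher by read ratio (11.7%). Cilia reads per Ttr read were 257 times the WT value in PS19 Zbp1+/-, and 27.9 times per read of the plexus list. TPM lets more genes reach the filter (39, 39 and 37 of 42) and moved the median of all genes to 0.11, -0.25 and -0.15 (PS19 over WT, PS19 Zbp1+/- over PS19, PS19 Zbp1+/- over WT). Scaling by total reads moved the all-gene median of the read ratio to 0.02, -0.18 and -0.17. A lower threshold or a smaller pseudocount admits smaller differences by construction, and the cause of the other shifts was not tested. No alternative turned a median over the cilia genes to the other sign. Depth limits genes of few reads, such as Dnaaf1 and Spag17, whose differences between WT and PS19 were not detectable.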

Other observations

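Mcidas and Myb, multiciliation genes outside the 42, are named here after their values were seen. Mcidas, which acts early in the multiciliated fate and lies next to Ccno on chromosome 13, had 2, 2 and 15 reads (WT, PS19, PS19 Zbp1+/-), with the last at 8.18 of WT and an exact 95% interval of 1.9 to 73.7. Its 19 reads in all are under the minimum of 20, so it enters no count. Myb, which promotes centriole amplification, had 48, 19 and 2 reads, with PS19 Zbp1+/- at 0.0454 of WT (0.00535 to 0.173). Within the meninges and plexus stroma list, Dcn had 1140, 474 and 1910 reads, while Col1a2 had 375, 383 and 56, Pcolce 400, 340 and 52, and Col1a1 199, 226 and 90.

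Across the 42 genes, the log2 read ratio of PS19 Zbp1+/- over WT had a Spearman rho of 0.22 with gene length, 0.33 with reads summed over the 3 libraries and 0.04 with transcript GC content. These are given as a description, since the genes share the same libraries and are not independent replicates.

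By order of level, 25 of the 42 genes were highest in PS19 and lowest in PS19 Zbp1+/-, 8 were highest in WT and lowest in PS19 Zbp1+/- as Ttr was, 6 were highest in WT and lowest in PS19, and 3 were highest in PS19 Zbp1+/- and lowest in PS19. The 3 were Ccdc65, Dnah1 and Dnaaf1. The shares of all genes with each order were not counted. For 27 of the 42 genes the interval of PS19 over WT contained 1, so their order of PS19 and WT is within counting error.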
